A study of Mus musculus with 20 samples.

Results

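The genes examined here were the mouse amyloid precursor gene App, its secretase genes Adam10, Bace1, Psen2, Ncstn and Aph1a, the amyloid-degrading enzyme genes Mme and Ide, and the tau gene Mapt. They were chosen by name and function, though with earlier results of these data known, and were 9 of the 23413 genes counted in the cortex libraries. All 9 passed the filter on low counts and were among the 15660 genes tested. The question was whether a ketogenic diet (KD), compared with a control diet (CD), changed their RNA in aged APOE4 mice, and whether it did so in the same way in females and males. Every mouse was an APOE4 knock-in of the B6(SJL) background, in which human APOE4 replaces mouse Apoe, so the controls carried the allele too. No human amyloid precursor or tau transgene is named in the genotype, and App and Mapt are therefore the endogenous mouse genes. The mice were housed singly and given the diets in equal calories from the age of 10 months, and after 12 months, when they were 22 months old, brain cortex was taken and frozen. There was 1 library per mouse, 20 in all: 9 females, 5 on the CD and 4 on the KD, and 11 males, 5 on the CD and 6 on the KD.

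App encodes a membrane protein that is cut in 2 alternative ways. Cleavage by the α-secretase ADAM10 within the amyloid-β stretch releases a soluble ectodomain and prevents amyloid-β from forming. Cleavage by the β-secretase BACE1 leaves a stub from which γ-secretase, a complex that contains a presenilin such as PSEN2, nicastrin (Ncstn) and an APH1 subunit, cuts amyloid-β. Neprilysin (Mme), a membrane peptidase, and insulin-degrading enzyme (Ide) break amyloid-β down. Tau (Mapt) binds axonal microtubules, and it forms the tangles of Alzheimer's disease, for which APOE4 is the main common genetic risk factor. RNA levels of these genes do not measure the amounts of the peptides or the activities of the enzymes.

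The stretch of App that codes for amyloid-β is shown because ADAM10, BACE1 and γ-secretase all act in it or at its ends. In the GENCODE annotation of GRCm38 it was coded by 126 bases of App, 42 codons on the minus strand at chr16:84962794-84965720, split over exons 16 and 17 of the 18 exons of the 770-residue form, with the first 51 bases in exon 16. Capitals mark the first codon after the β-secretase cut and the 2 codons that flank the α-secretase cut, which follows codon 16.
App amyloid-β coding bases: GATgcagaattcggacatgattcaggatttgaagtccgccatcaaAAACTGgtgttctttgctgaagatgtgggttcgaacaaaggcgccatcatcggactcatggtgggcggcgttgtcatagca
These bases were the same in all 5 annotated App forms that contain them.

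Every member was counted in every library. The total counts of a library ran from 12207161 to 29109990, and the lowest count of any member in any library was 58, for Psen2. The library numbers formed 2 series of 10 libraries, with medians of 25282098 and 15354537 counts, and every group had libraries in both. Levels are given as CPM, counts scaled so that every library has the same total. Mouse Apoe, the gene replaced in this genotype, was at 1.33 to 3.34 CPM in every library. Female libraries had at least 319 CPM of Xist and male libraries at most 7.59 CPM. One library, CD female E228, also had 14 CPM of the Y-linked gene Ddx3y, against at most 1.64 CPM in the other females.

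Slc17a7, the vesicular glutamate transporter of cortical excitatory neurons, was at 149.7 CPM or more in every library, but 5 libraries carried many more striatal transcripts than the others. The 12 markers of striatal projection neurons summed to 2741 CPM in KD female E61, 2485 CPM in KD female E68, 3157 CPM in KD female E207 and 3729 CPM in KD male E59. In CD female E249 they summed to 1139 CPM, and in no other library to more than 632 CPM. The fourth KD female, E227, had 341 CPM, which lay within the range of the libraries other than these 5. The most abundant striatal marker was the phosphodiesterase gene Pde10a, and only Six3 was at 0 in any library, in 9 of 20. The 10 markers of cortical excitatory neurons summed to 585 to 682 CPM in E61, E68, E207 and E249 and to at least 1052 CPM in the other 16 libraries. Library E59 also carried choroid plexus transcripts, with 2187 CPM of Ttr and a sum of 2396 CPM over 7 markers, which was at most 67.9 CPM elsewhere. KD male E64 had the most hippocampal transcripts, led by Fibcd1 at 79.4 CPM.

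Per length, the precursor and tau genes were by far the most abundant of the 9. The level per kilobase of annotated exon had a median over the 20 libraries of 69.9 CPM per kb for App, 60.2 for Mapt and 30.4 for Adam10. Ide and Bace1 followed with medians of 21.4 and 21.3 CPM per kb. They could not be ordered, since each was above the other in 10 of the 20 libraries. The γ-secretase genes were lower, with 7.15 CPM per kb for Ncstn, 3.82 for Aph1a and 1.91 for Psen2, and Mme was lowest at 1.13. App exceeded Mapt in 19 of 20 libraries and Psen2 exceeded Mme in 14 of 20. Adam10 exceeded Ide in all 20, but in KD male E64 it lay below Bace1, at 24.9 against 25.2 CPM per kb. The remaining neighbours kept their order in all 20. Scaled to coding length alone, Bace1, at 90.1 CPM per kb, stood above Adam10 at 66.5, and Aph1a, at 16.4, above Ncstn at 13.4, so that the middle of the order depended on how much untranslated sequence is counted.

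None of the 9 genes passed, for diet, the threshold used for differentially expressed genes (DEGs), which was an FDR of at most 0.1 with a change of at least 1.5-fold in edgeR's quasi-likelihood test. In females 0 of 9 members were DEGs, where 0.0447% of all genes tested were (7 of 15660). At an unadjusted p under 0.05 there was 1 member, Mme, where 11.4% of all genes passed. In males 0 of 9 were DEGs, as were 0% of all genes, and 0 of 9 had an unadjusted p under 0.05, against 3.56% of all genes. DESeq2's Wald test also called 0 of the 9 in either sex. Over both sexes together, which uses the same mice again, 0 of 9 were DEGs, against 0.268% of all genes, and again only Mme had an unadjusted p under 0.05, against 13.9%. The test of whether the effect differed between the sexes called 0 of 9 members and 0% of all genes, and 0 of 9 had an unadjusted p under 0.05, against 2.14%.

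For most members the main model also bounded how large a change could have been. The 95% confidence interval of the KD to CD fold change lay within 1.5-fold in either direction for 7 of 9 members in females, all but Psen2 and Mme, and for 8 of 9 in males, all but Mme. In females 4 members were higher and 5 lower on the KD, with a median log2 fold change of −0.061 against 0.013 for all genes tested. In males 5 were higher and 4 lower, with a median of 0.023 against −0.0030 for all genes. No member separated the diets completely: in each sex, the ranges of the KD and CD libraries overlapped for all 9, whereas 2.1% of all genes in females and 0.217% in males did not overlap. RNA came from pieces of cortex that hold many cell types. Fewer cells of a type and less RNA per cell therefore cannot be told apart in any of these comparisons. Among females, KD libraries E61, E68 and E207 and CD library E249 were rich in striatal and poor in cortical excitatory markers. Diet and tissue composition are thus partly confounded in females, and the intervals hold only for the main model. The log2 fold change of App in females was 0.022 with the striatal score as a covariate and −0.33 in library series 1 alone.

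**Figure D1:**
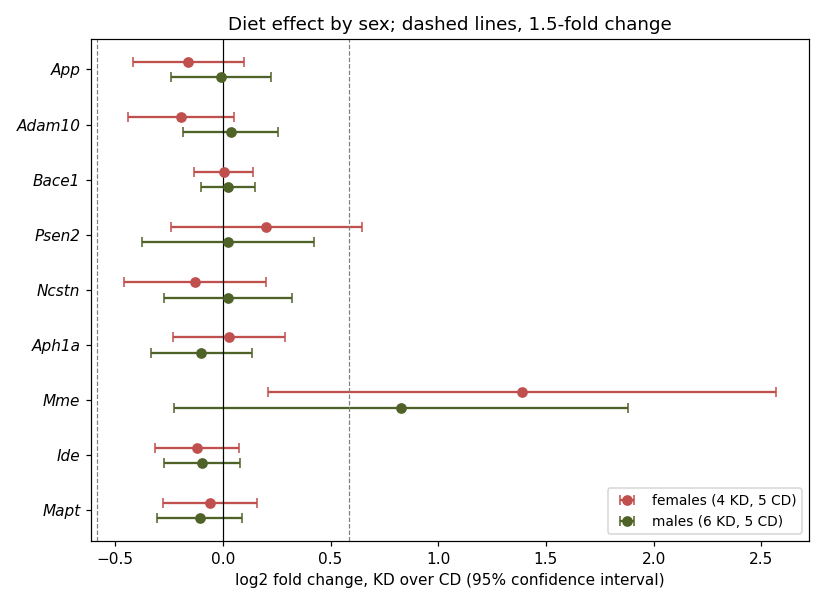
Log2 fold change of each member, KD over CD, in females (4 KD and 5 CD) and males (6 KD and 5 CD), with the 95% confidence interval as a horizontal bar, a solid line at no change and dashed lines at 1.5-fold. All estimates but those of Mme lie close to 0, and the intervals of Mme, at 1.39 in females and 0.83 in males, are several times as wide as the others.

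App (chr16:84949685-85173766, minus strand) was the most abundant member and varied more between mice than between diets. In CD females it was at 559, 801, 945, 1089 and 1101 CPM, and in KD females at 730.4, 784, 871 and 1011 CPM. The CD males had 777, 868, 1034, 1126 and 1259.6 CPM, and KD males between 764 and 1294 CPM, with a median of 972. The lowest of all was CD female E249, one of the libraries poor in cortical markers, and the groups otherwise overlapped over nearly their whole range. On the KD the log2 fold change was −0.16 ± 0.123 (SE) in females (edgeR, adjusted p = 0.710) and −0.010 ± 0.111 in males (adjusted p = 1). In females the level was 899 ± 226 CPM on the CD (SD, n = 5) and 849 ± 123 on the KD (n = 4). App overlaps the exons of an antisense gene, Gm49227, and the strand counted is not stated, so reads from this partner cannot be told apart.

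**Figure D2:**
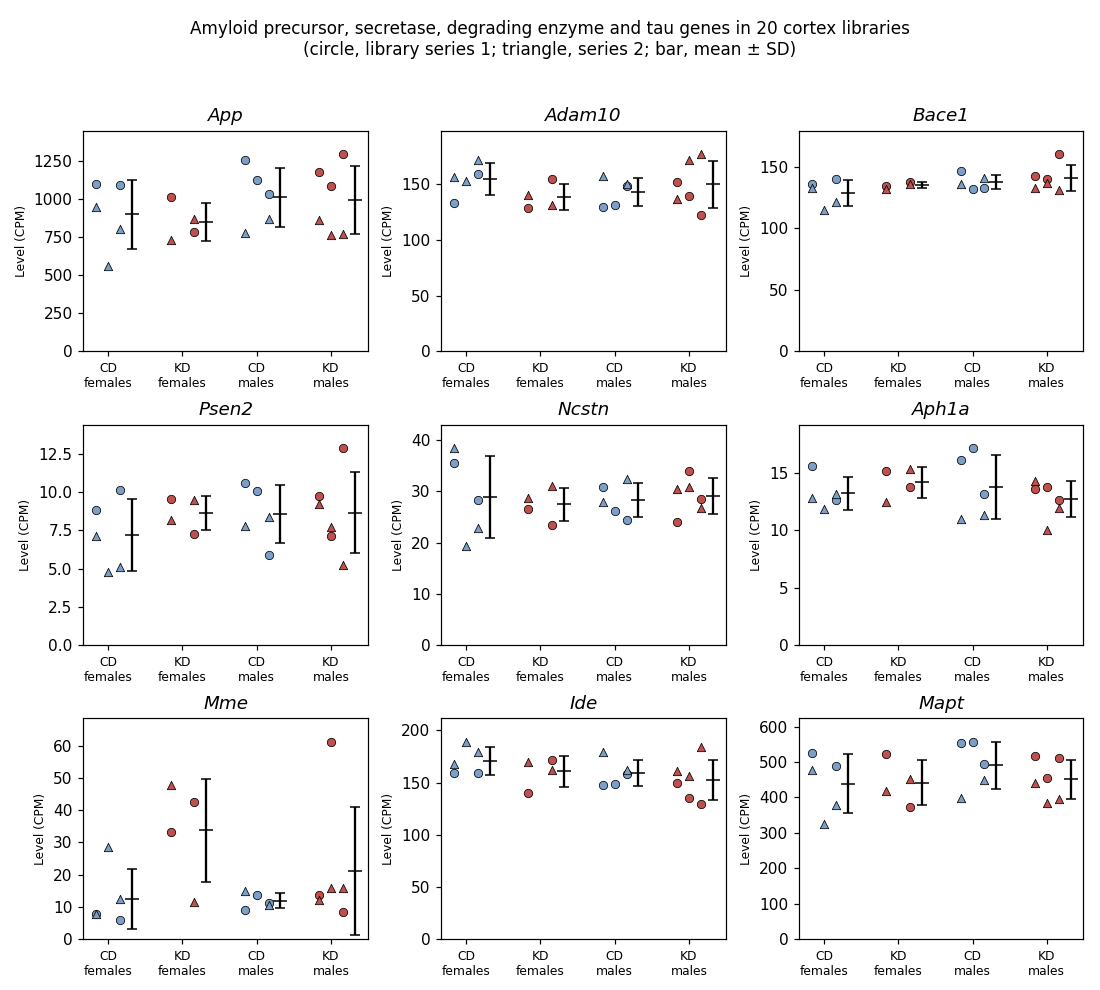
Level of each member in CPM, from 0, in every library by diet and sex (blue, CD, red, KD, circles, library series 1, triangles, series 2), with the mean and SD of each group as a black bar beside its points. Bace1 stays between 115 and 160.0 CPM in all 20 libraries, App is on average higher in series 1 than in series 2, and Mme is above 28 CPM in 5 libraries, 3 of them from KD females.

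The 2 enzymes that compete for the precursor, ADAM10 and BACE1, are encoded on the same chromosome. Adam10 (chr9:70678997-70780229, plus strand) was at 133, 153, 156, 159 and 172 CPM in CD females and at 129, 131, 140.3 and 155 CPM in KD females. In CD males it was at 129, 131, 149, 150.0 and 157 CPM, and in KD males between 122 and 177 CPM, with a median of 146. Of the KD females 2 lay below the lowest CD female and 2 within the CD females' range, while the KD males extended past the CD males at both ends. Adam10 had a log2 fold change of −0.19 ± 0.117 (SE) in KD females (edgeR, adjusted p = 0.584) and 0.036 ± 0.105 in males (adjusted p = 1). The difference between the sexes in this effect, −0.23 ± 0.158, was not significant either (adjusted p = 1).

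Bace1 (chr9:45838580-45864399, plus strand) was the steadiest member. It was at 115, 121, 132, 135 and 140.1 CPM in CD females and at 132, 134, 136 and 138 CPM in KD females. The CD males had 132, 133, 136, 140.4 and 146 CPM, and KD males between 131 and 160.0 CPM, with a median of 138. The coefficient of variation over the 20 libraries was 6.65%, the smallest of the 9, and in KD females it was 1.91%. Its log2 fold change was 0.0042 ± 0.0657 (SE) in females and 0.023 ± 0.0592 in males (edgeR, adjusted p = 0.993 and 1), with 95% confidence intervals of −0.13 to 0.14 and −0.10 to 0.15. Exons on the other strand that overlap Bace1 belong to Rnf214, Gm16536 and Gm49338.

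The ratio of Adam10 to Bace1 within a library does not depend on how libraries are scaled. Its geometric mean was 1.03 in KD females and 1.20 in CD females, and 1.06 in KD males and 1.04 in CD males. On the log2 scale the KD females were lower by a difference of −0.23 (exact two-sided permutation test, p = 0.0873, adjusted over 10 ratio tests 0.437), and the males differed by 0.028 (exact p = 0.844, adjusted 0.844). With 4 against 5 females the smallest p this test can give is 0.00794. In females the difference was −0.023 within library series 1 and −0.37 within series 2, so it came mainly from the second series.

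Of the γ-secretase genes, Psen2, which encodes a catalytic subunit, had the fewest counts. Psen2 (chr1:180227004-180263438, minus strand) was at 4.75, 5.08, 7.12, 8.85 and 10.1 CPM in CD females and at 7.28, 8.17, 9.45 and 9.55 CPM in KD females. In CD males it was at 5.89, 7.78, 8.39, 10.1 and 10.6 CPM, and in KD males between 5.21 and 12.9 CPM, with a median of 8.47. The KD females lay in the upper part of the CD females' range, and the groups overlapped. For Psen2 the log2 fold change was 0.20 ± 0.213 (SE) in females (edgeR, adjusted p = 0.818), with a 95% confidence interval of −0.24 to 0.65, and 0.023 ± 0.191 in males (adjusted p = 1). The value in females turned to −0.22 in library series 1 alone.

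Nicastrin, the substrate-binding subunit, and APH1A, a scaffold of the complex, did not pass the threshold either. Ncstn (chr1:172066013-172082795, minus strand) was at 19.4, 22.9, 28.2, 35.5 and 38.4 CPM in CD females and at 23.5, 26.6, 28.8 and 31 CPM in KD females. It was at 24.4, 26.2, 27.9, 30.9 and 32.4 CPM in CD males and between 24.1 and 34 CPM in KD males, with a median of 29.5. All KD females and all males lay within the range set by the CD females. On the log2 scale Ncstn had a difference of −0.13 ± 0.158 (SE) in females and 0.023 ± 0.142 in males (edgeR, adjusted p = 0.851 and 1). An exon of Copa on the opposite strand overlaps Ncstn.

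Aph1a (chr3:95893969-95898288, plus strand) was at 11.9, 12.6, 12.8, 13.2 and 15.6 CPM in CD females and at 12.4, 13.8, 15.1 and 15.3 CPM in KD females. It was at 11, 11.3, 13.1, 16.1 and 17.1 CPM in CD males and between 10.1 and 14.2 CPM in KD males, with a median of 13.1. The SD was 2.78 CPM in CD males and 1.54 CPM in KD males, and the diets overlapped in both sexes. On the log2 scale the difference was 0.026 ± 0.124 (SE) in females and −0.10 ± 0.112 in males (edgeR, adjusted p = 0.974 and 1). KD males E64 and E254 had the fewest oligodendrocyte transcripts, with marker sums of 921 and 1192 CPM against at least 1730.0 in the other 18 libraries, and E254 had the least Aph1a of all. Without either of these 2 mice the difference in males was −0.066 or −0.065, and the part of these markers was not tested. Aph1a overlaps Car14 on the other strand. The balance among the subunits did not shift detectably: the ratio of Ncstn to Aph1a had geometric means of 1.94 on the KD and 2.13 on the CD in females and of 2.29 and 2.09 in males, and that of Psen2 to Aph1a 0.606 and 0.523 in females and 0.659 and 0.619 in males (exact permutation tests, adjusted p from 0.615 to 0.772).

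Mme, which encodes neprilysin, was the one member whose level differed widely between libraries. Mme (chr3:63241537-63386030, plus strand, no overlapping gene) was at 5.84, 7.68, 7.76, 12.4 and 28.5 CPM in CD females and at 11.5, 33.3, 42.6 and 47.8 CPM in KD females. In CD males it was at 8.89, 10.6, 11.3, 13.7 and 14.8 CPM. In KD males it was between 8.25 and 61.1 CPM, with a median of 14.7. The high CD female was E249, the low KD female E227 and the high KD male E59, so that 3 of 4 KD females exceeded every CD female, while the other 5 KD males, at 8.25 to 16 CPM, lay in or close to the range of the CD males.

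The fitted difference in Mme was 2.62-fold in females (95% confidence interval 1.15 to 5.93), a log2 fold change of 1.39 ± 0.564 (SE), with an unadjusted p of 0.0236 that did not hold after adjustment over all genes (edgeR, adjusted p = 0.348). In males it was 1.77-fold (0.855 to 3.68), or 0.83 ± 0.503 (adjusted p = 1). Over both sexes Mme was higher by 1.11 ± 0.380 on the log2 scale (edgeR, adjusted p = 0.189). Its effects in females and males differed by 0.56 ± 0.746 (edgeR, adjusted p = 1). On log2 CPM without the library series, the exact two-sided permutation test gave p = 0.0556 in females and p = 0.338 in males. The value rested on few libraries. Without CD female E249 the log2 fold change in females was 1.93 (edgeR, adjusted p = 0.0421), and without KD female E227 it was 1.72 (adjusted p = 0.0968), both past the DEG threshold, whereas without KD female E207 it was 1.07 (adjusted p = 0.834). In females the value was 2.45 in library series 1 alone and 0.81 in series 2 alone (edgeR, adjusted p = 0.149 and 0.834), and in males 1.26 and 0.22 (adjusted p = 0.800 and 1). Leaving out KD male E59 gave 0.038 in males, 0.79 over both sexes and a difference between the sexes of 1.495, and leaving out E207 gave a difference of 0.25.

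Mme moved with the striatal markers. The 5 libraries with the most striatal RNA, E59, E207, E61, E68 and E249, were the 5 with the most Mme, and E227, the KD female with few striatal transcripts, had the least Mme of its group. The striatal marker Ppp1r1b was at 190.8 CPM in E61, 125 CPM in E68, 158 CPM in E207 and 292 CPM in E59, against 21.1 CPM in E227. It did not follow Mme in every library, since E249 had 36.9 CPM of Ppp1r1b and CD male E58, with 13.7 CPM of Mme, had 56.0. Across the 20 libraries, with the mean of each series removed, log2 CPM of Mme correlated with the striatal score (the mean z-score of the 12 markers) at r = 0.918 and with the cortical excitatory score at r = −0.743, as a description of libraries that share their diet groups and scaling. All 12 striatal markers were higher on the KD in both sexes, with median log2 fold changes of 2.13 in females and 1.28 in males, though 0 of the 12 passed an FDR of 0.1. The value in males rested on E59, since without it 2 of the 12 were higher and 10 lower, with a median of −0.35. Leaving out KD female E207 gave a median of 1.28 in females. Leaving out CD female E249 gave 3.35, and all 12 then passed, while 3 passed when E227 or E59 was left out. With the striatal score as a covariate, the log2 fold change of Mme was 0.021 ± 0.296 in females (adjusted p = 0.991) and 0.27 ± 0.224 in males (adjusted p = 1). Choroid plexus transcripts also moved with Mme (r = 0.700). Their markers summed to 2396 CPM in E59 and to 54.4 to 67.9 CPM in the other 4 libraries high in Mme, but CD male E251 and KD male E254, low in Mme, had sums of 66.9 and 54.0 CPM. Ttr, the most abundant of these markers, was at 0.603 to 2.60 CPM in those 4 libraries, the lowest of all 20, against at least 6.51 CPM elsewhere. Mme also correlated with the scores of microglia (r = 0.593) and inhibitory neurons (r = 0.472). Inhibitory neuron markers, led by Gad1, summed to 1541 to 1928 CPM in E61, E68, E207 and E249 and to at most 1219 CPM elsewhere. Their score, which weighs each marker alike, was 0.55 in E61 and 0.49 in E68. It was 0.20 in E207 and −0.36 in E249, against 0.43 in E59. Microglial markers had mean sums of 420 CPM in KD and 333.1 CPM in CD females. The part of these markers in the result was not tested.

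**Figure D3:**
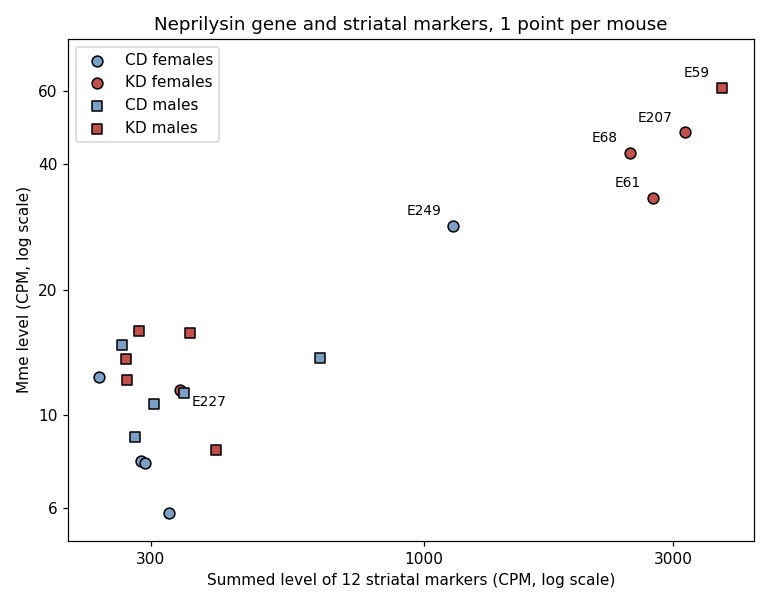
Level of Mme against the summed level of 12 striatal markers, both in CPM on log axes, with 1 point per mouse (circles, females, squares, males, blue, CD, red, KD). Libraries E249, E61, E68, E207 and E59 lie at the upper right with 28.5 to 61.1 CPM of Mme, and the other 15, E227 among them, lie at the lower left with at most 16 CPM.

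Insulin-degrading enzyme, the other degrading enzyme of the set, had a much steadier RNA. Ide (chr19:37268743-37337852, minus strand) was at 159, 159, 167, 179.6 and 189 CPM in CD females and at 139.7, 162, 169.7 and 172 CPM in KD females. The CD males had 148, 149, 158, 162 and 179 CPM, and KD males between 129.9 and 184 CPM, with a median of 153. The ranges overlapped in both sexes, with the lowest library on the KD in each. The log2 fold change was −0.12 ± 0.0927 (SE) in females, −0.098 ± 0.0836 in males and −0.11 ± 0.0622 over both sexes (edgeR, adjusted p = 0.707, 1 and 0.458). The ratio of Mme to Ide had a geometric mean of 0.185 in KD and 0.0612 in CD females, a log2 difference of 1.60 (exact permutation p = 0.0397, adjusted 0.397), and of 0.110 and 0.0736 in males, a log2 difference of 0.58 (exact p = 0.238, adjusted 0.615). Without KD male E59 the difference in males was 0.17, and that in females was 2.52 in library series 1 and 0.85 in series 2.

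Tau RNA was abundant, and no diet effect on it passed the threshold. Mapt (chr11:104231390-104332090, plus strand) was at 326, 378, 477, 489 and 527 CPM in CD females and at 374, 419.5, 451 and 524 CPM in KD females. In CD males it was at 399.9, 449, 494, 553 and 557 CPM, and in KD males between 386 and 516 CPM, with a median of 449. CD female E249 was again the lowest, and all KD females fell inside the range of the CD females. The diet effect on Mapt was −0.061 ± 0.104 (SE, log2 scale) in females and −0.11 ± 0.0941 in males (edgeR, adjusted p = 0.913 and 1). The ratio of App to Mapt was steady, with geometric means of 1.92 on the KD and 2.02 on the CD in females and of 2.16 and 2.05 in males (exact permutation p = 0.405 and 0.377, both adjusted 0.615).

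No member passed the threshold between females and males. Averaged over the diets, 0 of 9 members were DEGs between the sexes, against 0.134% of all genes, and 0 of 9 had an unadjusted p under 0.05, against 13.6%. App and Bace1 came nearest, both lower in females, with log2 differences of −0.15 ± 0.0836 (SE) and −0.082 ± 0.0444 (edgeR, adjusted p = 0.420 for each). The 95% confidence interval of the sex difference lay within 1.5-fold for 8 of 9 members, all but Mme. The libraries poor in cortical excitatory markers, E61, E68, E207 and E249, were all from females, and App correlated with that score (r = 0.752). Sex and the content of these markers are therefore partly confounded, and the part of these markers was not tested.

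More genes differed between the library series than between the diets or the sexes. This comparison was chosen after the values had been seen. Series 2 differed from series 1 in 7.24% of all genes at the DEG threshold and in 37.9% at an unadjusted p under 0.05. None of the 9 members was a DEG, since their differences were under 1.5-fold, but 3 of 9 passed an FDR of 0.1, where 33.2% of all genes did, and 4 had an unadjusted p under 0.05. The share of members was thus close to that of all genes. App fell by 0.41 on the log2 scale in series 2 (SE 0.0829, edgeR, adjusted p = 0.00193), from 1096 ± 142 CPM (SD, n = 10) to 795 ± 105. Mapt fell by 0.23 (adjusted p = 0.0263) and Ide rose by 0.22 (adjusted p = 0.0156), while Adam10, higher by 0.17, did not pass (adjusted p = 0.117). The largest of these, 0.41 for App, exceeded every diet effect among the 9 genes except those of Mme. The series coincides with the depth of the libraries, 21015275 to 29109990 counts against 12207161 to 17697342. It also coincides with the numbers of the mice, E51 to E68 against E207 to E265. Depth and any difference between these sets of mice cannot be told apart, and the part of depth was not tested.

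Over the mice, App tended to vary with Mapt, Ncstn, Bace1 and Psen2 and against Mme and Ide. With series means removed, log2 CPM of App correlated with that of Mapt at r = 0.861, of Ncstn at 0.660, of Bace1 at 0.630 and of Psen2 at 0.611, over the same 20 libraries. App and Mme had r = −0.641, and App and Ide r = −0.625. App also correlated with the cortical excitatory score (r = 0.752) and against the striatal (−0.570) and microglial (−0.539) scores. Mapt did so less, at 0.567, −0.406 and −0.332, and Aph1a correlated with the score of oligodendrocytes (0.617) and Bace1 against it (−0.534). The hippocampal score correlated with Bace1 (0.586) and Psen2 (0.493) and against Ide (−0.570) and Adam10 (−0.498). KD male E64, with the most hippocampal transcripts, had the highest App, Bace1 and Psen2 and the lowest Adam10 and Ide of all 20 libraries. The part of these markers was not tested. The correlations are descriptions, since all points share library scaling and tissue composition.

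Among all genes tested, the closest match to App was Lingo1 (r = 0.955), a neuronal inhibitor of myelination, followed by the phosphatase gene Ppp5c (0.953). Mapt was closest to Sac3d1 (0.953) and Atcay (0.939). Ncstn was closest to the huntingtin gene Htt (0.936) and to Pianp (0.932), and Psen2 to Polr1c (0.941), a subunit of RNA polymerases, and Pfkfb4 (0.932). Adam10 was closest to Bcap29 (0.893) and Zfr (0.881), and Bace1 to H2afx (0.895) and Sppl3 (0.877), a presenilin-like protease. Ide matched Zfp800 (0.924) and Ppp2r3a (0.884), and Aph1a had the weakest matches, Jakmip3 (0.795) and Plekhg3 (0.790). Among the matches of Mme was the kinase gene Rps6ka5 (0.961).

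The wider pathway was described with 5 lists of other genes, and 0 of their 60 tested genes passed an FDR of 0.1 for diet in either sex, where 0.0511% of all genes passed in females and 0% in males. Relatives, sorting receptors and adaptors of the precursor were 6 higher and 9 lower in KD females, the median log2 change being −0.059 (0.013 for all genes tested), and 6 higher and 9 lower in males, with a median of −0.019. The median in females was −0.33 in library series 1 alone, and 0.11 both in series 2 alone and with the striatal score as a covariate. In females 1 was higher and 2 were lower at an unadjusted p under 0.05, which 11.4% of all genes passed. Sorl1, which encodes a receptor that sorts the precursor away from the endosome, had a difference of −0.60 ± 0.205 (SE, log2 scale) in females (edgeR, adjusted p = 0.255), from 398 ± 145 CPM in CD females to 272 ± 34.1 in KD females, and of −0.28 ± 0.183 in males (adjusted p = 1). Rtn3, a reticulon that binds BACE1, had −0.33 ± 0.121 in females (adjusted p = 0.286), and Itm2c, a relative of the amyloid-related gene Itm2b, 0.36 ± 0.152 (adjusted p = 0.365). Over the 20 libraries Sorl1 correlated with the cortical excitatory score at r = 0.704 and with the striatal score at −0.447, Rtn3 at 0.586 and −0.575, and Itm2c at −0.055 and 0.211, and the part of these markers was not tested.

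Of the 6 further secretase genes, KD females had 3 at higher and 3 at lower levels (median −0.074). KD males had 4 and 2 (median 0.014). The median in females was −0.18 without KD female E68 and −0.021 without CD female E265. That in males turned to −0.046 without CD male E51 and was 0.074 without CD male E66. Adam17, which encodes another α-secretase, had a difference of 0.28 ± 0.129 on the log2 scale in females (edgeR, adjusted p = 0.417), and Aph1c, a close relative of Aph1b, −0.38 ± 0.147 (adjusted p = 0.325). Aph1b and Aph1c are near-identical copies, so their counts are uncertain. Adam17 was highest of all in KD female E68, at 36.4 CPM, and in CD female E249, at 34.0 CPM, and correlated with the striatal score at r = 0.681 and with the cortical excitatory score at r = −0.869 over the 20 libraries, while Aph1c had r = −0.599 and 0.434.

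Other enzymes able to degrade amyloid-β were 8 higher and 3 lower in KD females (median 0.091) and 7 higher and 4 lower in males (median 0.047). Without KD female E68 the median in females was 0.26. That in males was 0.010 without KD male E64 and 0.17 without CD male E51. Ece2, an endothelin-converting enzyme, had the smallest p in females, with a log2 fold change of 0.77 ± 0.295 (edgeR, adjusted p = 0.314). It was at 11.4, 16.5, 19.4, 20.6 and 40.6 CPM in CD females and at 22.1, 38.0, 42.7 and 55.0 CPM in KD females, and the high CD female was again E249 and the low KD female E227. Its correlation with the striatal score was 0.608 and with the cortical excitatory score −0.830. In males the smallest p belonged to Ace, the angiotensin-converting enzyme, at 0.78 ± 0.306 (adjusted p = 1). Its highest value was 49.5 CPM in library E59, next to a median of 15 CPM in KD males and 11.5 CPM in CD males, and Ace correlated with the choroid plexus score at r = 0.778. The part of these markers in the 2 genes was not tested.

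The tau side was covered by genes for other proteins of microtubules and for enzymes that add or remove phosphate on tau. Of 8 genes for microtubule-associated proteins, 5 had higher and 3 lower levels in KD females (median 0.0036) and 2 higher and 6 lower in males (median −0.026). Stmn1, encoding the tubulin-binding stathmin, was the only one with an unadjusted p under 0.05, at −0.39 ± 0.147 in females (edgeR, adjusted p = 0.303), and it followed the cortical excitatory score at r = 0.863 and the striatal score at r = −0.827. Of 20 genes for tau kinases, phosphatases and their regulators, 4 were higher and 16 lower in KD females (median −0.056). That median turned to 0.023 without KD female E68 and to 0.079 in library series 2 alone. In KD males 9 of the 20 were higher and 11 lower (median −0.014). Ppp2r5d, a regulatory subunit of protein phosphatase 2A, was the only one with an unadjusted p under 0.05, higher in KD females by 0.41 ± 0.135 (adjusted p = 0.241) and in KD males by 0.16 ± 0.122 (adjusted p = 1). Its correlation was 0.588 with the striatal score and 0.499 with the choroid plexus score, whose part was not tested. The kinases of smallest p among the lower genes were Dyrk1a in females, at −0.15 ± 0.0842 (adjusted p = 0.558), and Mark1 in males, at −0.17 ± 0.0956 (adjusted p = 1).

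**Figure D4:**
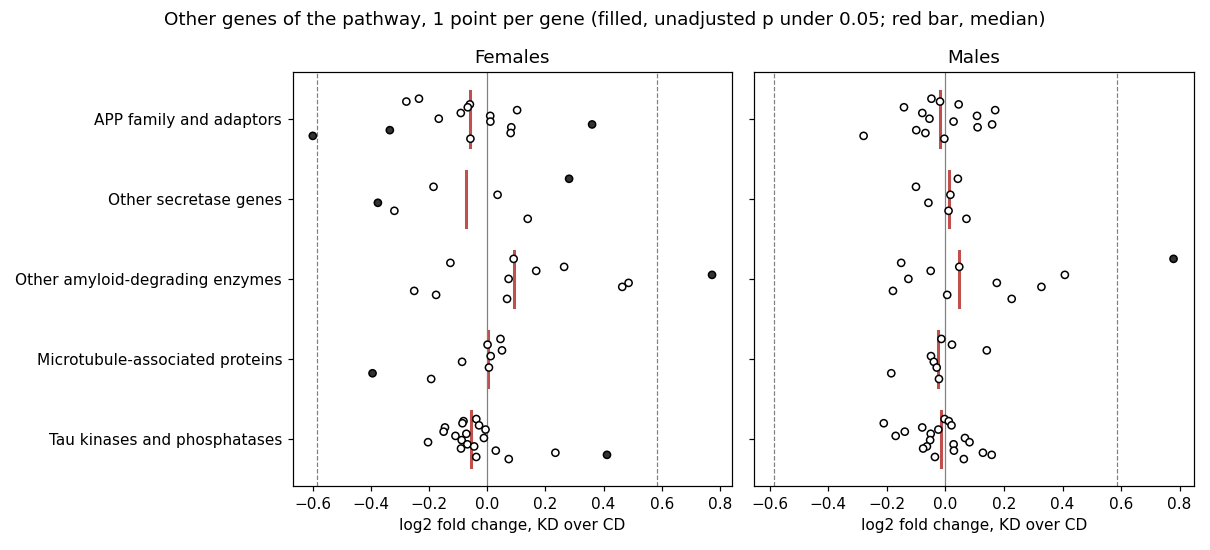
Log2 fold change, KD over CD, of the genes of 5 pathway lists in females and males, with 1 point per gene, filled where the unadjusted p is under 0.05, a red bar at the median of each list and dashed lines at 1.5-fold. The medians lie between −0.074 and 0.091, and the filled points number 8 of 60 in females, where 11.4% of all genes had such a p, and 1 of 60 in males, where 3.56% did.

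Several genes of these lists also differed between the library series. At an FDR of 0.1, 15.6% of all genes fell in series 2 and 17.6% rose. In series 2, 10 of the 20 tau kinase and phosphatase genes fell at an FDR of 0.1 and 0 rose, among them Ppp2r5d (−0.47, edgeR, adjusted p = 0.00140) and Cdk5r1 (−0.35, adjusted p = 0.00211), an activator of the tau kinase CDK5. Of the 15 genes related to the precursor, 6 fell and 0 rose, including its homologues Aplp1 (−0.35, adjusted p = 0.0898) and Aplp2 (−0.23, adjusted p = 0.00270). Of 11 degrading enzymes 3 fell, Ece1, Ctsd and Thop1, and of the 8 microtubule-associated proteins Map7d1, Map6 and Map1a fell while Map2 rose by 0.39 (adjusted p = 0.0121). Of the 6 other secretase genes, Aph1c rose by 0.35 (adjusted p = 0.0156). In the order given here, the list medians were −0.18, −0.23, −0.24, −0.050 and 0.029, against −0.016 for all genes tested.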

How the data were processed

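RNA from frozen cortex was made into stranded total RNA libraries. The authors aligned the reads with STAR to mm10, per the submitters' processing notes, and deposited raw counts of reads per gene for each mouse. The annotation and the strand counted are not given in the sources used here. Groups came from the sample titles, where SD is the CD. Library series were read from the numbers in the library names.

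The members and gene lists were chosen with earlier results of these data known. Named pathway genes were chosen among the 2 of smallest p in each direction per list, those past an FDR of 0.1, and, for likeness, the 2 genes of highest correlation per member, of which 1 is not reported here. Counts were tested in R 4.3.3 with edgeR 4.0.16 (filterByExpr, upper-quartile scaling, robust quasi-likelihood F test, all 20 libraries in one model with the 4 groups and the library series, Benjamini-Hochberg adjustment over 15660 genes). The study's methods name RUVg without its factors or control genes, so it was run as an alternative. Log2 CPM used a prior count of 2. The fit was checked on simulated counts with 200 changed genes. At an FDR of 0.1 it recovered 32.5% of 1.5-fold changes in females and 48% in males. For 2-fold changes it recovered 81.5% and 90%. A change of 1.5-fold could therefore often be missed. Coordinates, exon lengths and the App sequence came from GENCODE M21 (GRCm38), which held 21777 of the 23413 names. Within a group, all 41 pairs of libraries differed by more than sampling noise (chi-square per degree of freedom of at least 6.01). Alternatives covered scaling, filter, series term, RUVg, separate fits, the striatal score, the likelihood ratio test, DESeq2 1.42.0 and leaving out each mouse.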

Additional observations from a re-analysis of the deposited data

Results flagged for a closer look

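One of the 36 sets of values tested for a lone extreme (9 genes in 4 groups, log2 CPM) met the criterion, where chance alone would give about 1.8. Mme in the KD males was 61.1 CPM in library E59, and the gap to the next library took up 0.671 of the range of the 6 values. The same library had the most striatal and choroid plexus transcripts of all 20, and their part in the value was not tested.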

How the results depend on the processing

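No paired analysis was possible because mice carry their own numbers and no number is shared between groups. Across 13 other settings and 20 left-out mice, no member but Mme became a DEG in females, and 0 did in males. For Mme over both sexes, the log2 fold change passed the threshold with 2 RUVg factors (1.04, adjusted p = 0.0821), in series 1 alone (1.85, 0.0829), by the edgeR likelihood ratio test (1.10, 0.0881) and without E249 or E227 (1.37 and 1.28, adjusted p = 0.0253 and 0.0589). It was 0.15 with the striatal score (adjusted p = 0.832) and 0.79 without E59 (0.214). The cause was not tested.

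The number of DEGs among all genes depended on the model more than the members did. In females (7) it was 12 without the filter, 4 without the series term, 33 and 236 with 1 and 2 RUVg factors, 1 with females fitted separately, 865 in series 1, 0 in series 2 and with the striatal score, 220 by the likelihood ratio test and 253 by DESeq2, and 0 to 1046 without single mice (1046 without CD female E249, 906 without KD female E227). Over both sexes (42) it was 156 and 339 with RUVg, 886 in series 1, 0 in series 2 and with the striatal score, 370 and 351 by the other tests and 2 to 791 without single mice. For the interaction (0) it was 14 in series 1, 1 by each other test and 0 to 41 without single mice. Between the sexes (21) it was 4 with at least 10 counts in every library, 9 and 11 with RUVg, 76 and 5 in series 1 and 2, 286 and 212 by the other tests and 8 to 813 without single mice. In males it stayed at 0.

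Small effects changed sign. In females these were App with the striatal score (0.022), Bace1 with TMM (−0.00079), DESeq2 size factors (−0.0068), no filter (−0.0094), RUVg (−0.0034 and −0.0036), series 1 (−0.057) and DESeq2 (−0.0084), Psen2 (−0.22) and Aph1a (−0.0025) in series 1, Ncstn in series 2 (0.081), and Mapt in series 2 (0.077) and with the striatal score (0.063). In males they were App in series 1 (0.014) and with the score (0.024), Adam10 in series 1 (−0.030), Psen2 with 1 RUVg factor (−0.0065), and in series 2 Bace1 (−0.040), Psen2 (−0.13), Ncstn (−0.030) and Aph1a (0.12). The interaction of Mme turned to −0.25 with the score. Among ratios, Adam10 to Bace1 in males was −0.091 in series 1, Ncstn to Aph1a 0.082 in females and −0.14 in males in series 2, and Psen2 to Aph1a −0.23 in females in series 1 and −0.27 in males in series 2.

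Without single mice, some values of members moved by over 1.5 times with no change of sign. Those of Mme and its ratio stand above. Among diet effects in females the others were App (−0.26 without E227 to −0.070 without E68), Adam10 (−0.30 without E68 to −0.14), Psen2 (0.087 without E227 to 0.32 without E68), Ncstn (−0.25 without E249 to −0.014 without E228) and Ide (−0.21 without E68 to −0.077 without E61). In males they were Aph1a (−0.15 without E251 to −0.034 without E58) and Ide (−0.15 to −0.060 without E64). Among log2 ratios, Ncstn to Aph1a in females had −0.23 without E249 and −0.011 without E228. In males it had 0.023 without E58 and 0.25 without E264. Psen2 to Aph1a in females had 0.10 without E265 and 0.37 without E67. App to Mapt in females had −0.13 without E249 and −0.025 without E207, and in males 0.033 without E64. The sex difference of App was −0.10 without E68. Effects and ratios of members that changed sign ran as follows, with list medians given further on. In females, Bace1 ran from −0.026 to 0.029, Aph1a from −0.059 to 0.064 and Mapt from −0.13 to 0.038. In males, App ran from −0.046 to 0.021, Adam10 from −0.011 to 0.090, Bace1 from −0.0037 to 0.036, Psen2 from −0.097 to 0.10, Ncstn from −0.046 to 0.071, the ratio of Adam10 to Bace1 from −0.041 to 0.12 and that of Psen2 to Aph1a from −0.036 to 0.21. Among list medians in females, that of the genes related to the precursor (−0.059) was −0.33 in series 1. It was 0.11 in series 2 and 0.11 with the striatal score. That of the microtubule-associated proteins (0.0036) was −0.22 in series 1. That of the tau enzymes (−0.056) was −0.14 in series 1 and 0.079 in series 2. In series 2 the other degrading enzymes (0.091) had 0.30 and the other secretase genes (−0.074) had −0.19. Medians of males in series 1 were 0.011 for the precursor list, −0.018 for the secretases and 0.0083 for the tau enzymes. The striatal markers without single mice were added after seeing the data. Psen2 had the lowest counts, and 4 KD females limit every comparison in that sex.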
